A study of Mus musculus with 3 samples.

Results

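Vomeronasal type 1 receptor (Vmn1r) genes code for G protein-coupled receptors of the mouse vomeronasal organ, a sensory organ of the nose that reads chemical signals from other animals. The genes were chosen by a rule on names, with earlier results of these data known. Every probe that was not a control and whose accession matched a mouse gene called Vmn1r followed by a number was taken. This gave 175 probes for 164 genes, out of 231 genes of that name in the RefSeq gene table and out of 55681 probes on the array, of which 27235 (48.9%) could be named, for 20660 genes. In 154 genes there was 1 probe, and 10 genes had more than 1.

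The samples were 3 cultures of the J1 mouse embryonic stem cell (mESC) line, strain 129S4/SvJae, a line from the inner cell mass of 1 strain. All 3 were kept without feeders on gelatin in medium with leukemia inhibitory factor (LIF, 1000 U/mL) and were treated with 1 µM PD0325901 (PD), an inhibitor of the kinase MEK, for 24 h. Total RNA of each sample was labelled with Cy3 and hybridised to its own Agilent array, and the methods state that the samples came from independent experiments. Control cells given DMSO were not analysed here, so no effect of PD on these receptors was tested. The comparison that these data allow is of each Vmn1r probe with the negative control spots of the same array, which carry a sequence with no target, and it asks where the signal of genes of a distant sensory tissue lies in mESCs.

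A vomeronasal sensory neuron of the apical layer usually expresses a single Vmn1r gene from a single allele, and the receptor signals through the G protein subunit Gnai2, phospholipase C and the channel Trpc2. The genes stand in clusters, have their coding sequence in 1 exon and are known for recent duplications, so that near-identical copies are common. Outside sensory neurons they are usually taken to be off. In these data most Vmn1r probes lay at the background, though not all. On each of the 3 arrays 23 of 175 (13.1%), for 22 genes, were flagged well above background, against 60.3% of all probes. These 23 are described by their signals and not by an expressed receptor. Signal of a probe can also come from RNA of a related or overlapping sequence, which was not tested.

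The sequences below show how alike copies of these receptors can be. They are the bases around the annotated start of 3 pairs of near-copies, in each of which 1 gene had signal on all 3 arrays and the other on none, read from RefSeq (GRCm38.p6) from 60 bases before the start to 30 after it, on the strand of the gene and with the start codon in capitals.
Vmn1r48, chr6:90036812-90036901, minus strand: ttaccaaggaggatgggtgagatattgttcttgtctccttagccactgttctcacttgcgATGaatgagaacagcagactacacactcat
Vmn1r47, chr6:90021828-90021917, plus strand: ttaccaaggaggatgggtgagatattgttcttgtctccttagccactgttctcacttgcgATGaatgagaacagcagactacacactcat
Vmn1r173, chr7:23702282-23702371, plus strand: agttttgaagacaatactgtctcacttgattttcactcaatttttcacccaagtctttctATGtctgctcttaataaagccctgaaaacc
Vmn1r174, chr7:23753851-23753940, plus strand: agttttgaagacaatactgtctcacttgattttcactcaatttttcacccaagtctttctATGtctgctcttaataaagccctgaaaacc
Vmn1r217, chr13:23114701-23114790, minus strand: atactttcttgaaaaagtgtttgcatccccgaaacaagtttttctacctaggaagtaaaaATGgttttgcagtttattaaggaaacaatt
Vmn1r220, chr13:23184495-23184584, minus strand: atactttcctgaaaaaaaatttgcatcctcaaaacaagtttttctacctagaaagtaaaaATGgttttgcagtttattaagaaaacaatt
The printed windows of the first pair were the same in 90 of 90 bases, as were those of the second pair, and those of the third pair were the same in 82 of 90. The probe sequences were not used here, so which part of a gene each probe reads is not known.

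The cells carried the markers of mESCs. Each array flagged all 10 embryonic stem cell markers well above background, among them Pou5f1, the core pluripotency factor, at a processed signal of 12792 ± 3570 (SD, n = 3) and Zfp42 at 26093 ± 970. The processed signal is the spot intensity after subtraction of background and removal of trends, with the lowest values replaced by small positive ones. Its 75th percentile over spots that were not controls was 578 to 619 on the 3 arrays, no spot was saturated, and the arrays shared 1 slide and 1 scan. The lowest signal that was well above background did not exceed 11.4 on any array. Of the 7 measured genes in the list of sensory neuron markers 6 were flagged on every array, where 72.8% of all named genes were, with Omp, the olfactory marker protein of mature sensory neurons, at 362 ± 14.0, Cnga2, the olfactory channel, at 122 ± 9.41 and Gng8, a G protein subunit of these neurons, at 84.9 ± 6.17. Stmn2 and Tubb3, which most young neurons express, were at 16172 ± 965 and 3595 ± 73.6, Gap43 was at 663 ± 127, and Ano2 was well above background on 1 array. Trpc2 was not matched to a probe. The part of these markers in the Vmn1r signals was not tested.

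The negative controls gave the floor. They were 308 spots per array, all of 1 sequence, so they show the scatter of spots and not that of sequences. Their median background-subtracted signal was -3.12, -3.33 and -2.87 intensity units in replicates 1, 2 and 3. The median of the 175 Vmn1r probes was 0.848, 0.589 and 0.835. With outlier spots left out, the Vmn1r median thus lay above the control median by 4.12, 4.07 and 3.79 units, a difference of 3.99 ± 0.17 (SD, n = 3) with the same direction on 3 of 3 arrays. This was small next to the signals of most probes, and with 3 arrays an exact two-sided sign-flip test cannot go below p = 0.25. On the log2 scale of processed signals, also with outlier spots left out, the difference was 0.16, 0.11 and 0.15 log2 units (0.14 ± 0.03, SD, n = 3).

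**Figure D1:**
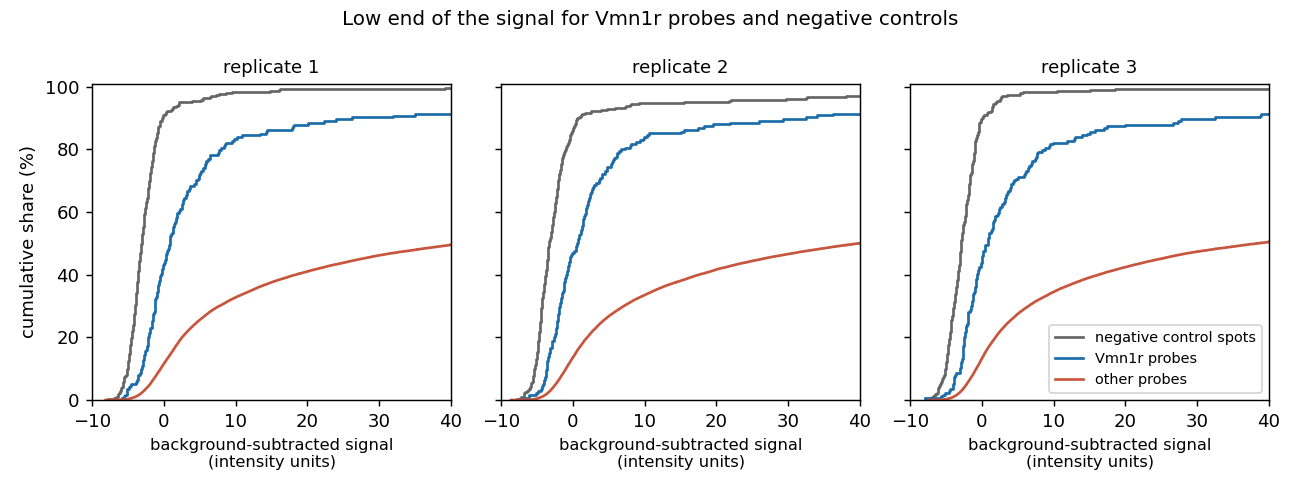
Cumulative share (%) of Vmn1r probes, negative control spots and all other probes below a given background-subtracted signal (horizontal axis, intensity units), with 1 panel for each replicate. The curve of the Vmn1r probes lay between the others: below 0 units were 76, 82 and 79 of 175 Vmn1r probes in replicates 1, 2 and 3 and 280, 265 and 276 of 308 control spots, and the curve of the other probes rose most slowly.

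Of the Vmn1r probes 27, 26 and 30 (15.4%, 14.9% and 17.1%) were well above background in replicates 1, 2 and 3, against 65.2%, 63.1% and 63.2% of all probes. The 23 probes (13.1%) that were so on all 3 arrays stood against 60.3% of all probes that were not controls and 72.4% of the probes with a gene name. On at least 1 array it was 36 Vmn1r probes (20.6%) against 68.0% of all probes. The remaining 139 Vmn1r probes (79.4%) were well above background on no array, and by gene these were 129 of 164. For those probes only a bound holds, since a signal that is not well above background does not show that a transcript is absent.

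The negative control spots were well above background in 5, 16 and 4 cases (1.62%, 5.19% and 1.299%). Only 1 of 308 was so on all 3 arrays, 2 were on 2 arrays and 18 on 1 array. Replicate 2 had the most such spots and the brightest control spot, at a signal of 533, while the brightest was 41.7 in replicate 1 and 232 in replicate 3.

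The limma test against the median of the controls on the same array called 83 Vmn1r probes higher (47.4%) and 31 lower (17.7%) at an adjusted p of 0.05, where it called 78.8% of all probes higher and 5.35% lower. However, the same test also called 213 of 295 single control spots (72.2%), so a call near the floor cannot be read as RNA. The part of the replaced low values in these calls was not tested. With normexp background correction 96 Vmn1r probes were called higher and 0 lower, so none of the 31 lower calls was kept. That setting called 48569 of 55680 probes higher and 15 lower, and 20 of 295 control spots (6.78%). When a difference of more than 1 log2 unit from the controls was required (treat of limma), 34 Vmn1r probes were higher (19.4%) and 0 lower, against 67.7% higher of all probes and 0 of 295 control spots called. Those 34 held all 23 probes that were well above background on 3 arrays, and 11 more of low signal. The flag and treat read the same spots, so this overlap is not independent support for the 23. The 11 were for Vmn1r76, Vmn1r237, Vmn1r219, Vmn1r151, Vmn1r139, Vmn1r199, Vmn1r194, Vmn1r59, Vmn1r226, Vmn1r64 and Vmn1r124. Of them Vmn1r237 had signals of 12.1, 5.98 and 13.4 with no array flagged, 2.0 log2 units above the controls (limma treat, adjusted p = 0.0386). On log2 of the background-subtracted signal plus 20 its difference from the controls was 0.80, so the distance depends on the scale.

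Other chemoreceptor families were measured on the same arrays. Of 111 probes for vomeronasal type 2 receptors (Vmn2r) 8 (7.21%) were well above background on all 3 arrays, of 1151 probes for odorant receptors (Olfr) 123 (10.69%) and of 37 probes for bitter taste receptors (Tas2r) 5 (13.5%). Of 15 probes for trace amine receptors (Taar) 1 was so (6.67%), and of 6 probes for formyl peptide receptors (Fpr), some of which vomeronasal neurons also express, 1 (16.7%). The median signal in replicate 1 was 2.65 for Vmn1r, 2.57 for Vmn2r, 2.60 for Olfr, 2.55 for Tas2r and 2.46 for Taar. The 6 Fpr probes had higher medians in replicates 1 and 2, at 8.86, 5.53 and 2.74 in the 3 replicates. A mean signal of 100 or more was reached by 8 Vmn1r probes (4.57%), 1 Vmn2r probe (0.901%), 19 Olfr probes (1.65%), 2 Tas2r probes (5.41%) and no Taar or Fpr probe, where 39.8% of all probes and 55.9% of the named ones reached it. The brightest probe had a mean signal of 271 among Vmn1r, 115 among Vmn2r, 805 among Tas2r and 5067 among Olfr. Probes of different families differ in sequence, and these differences between families were not tested.

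**Figure D2:**
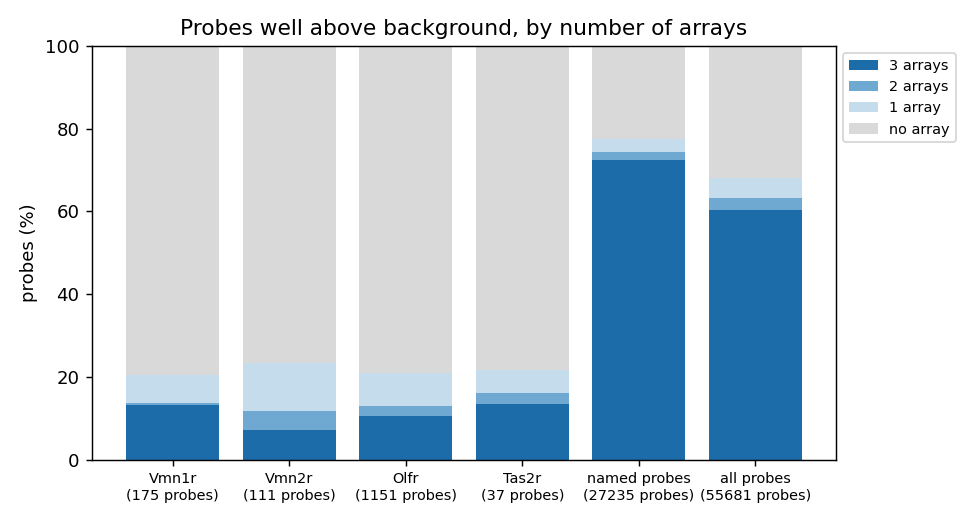
Share of probes (%, stacked bars) well above background on 3, 2, 1 or no array, for 4 chemoreceptor families, all probes with a gene name and all probes that were not controls. The 4 receptor families had 7.21% to 13.5% of probes on 3 arrays, and the named probes 72.4%.

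The brightest Vmn1r probe was 1 of 2 for Vmn1r217, a gene of the chromosome 13 cluster, with signals of 254, 280 and 280 in replicates 1, 2 and 3. The probe for Vmn1r70, on chromosome 7, gave 308, 231 and 248. Both means (271 ± 14.9 and 262 ± 40.5, SD, n = 3) lay below the 75th percentile of the arrays. In log2 units over the controls they were 6.75 and 6.69 (limma treat, adjusted p = 1.52e-06 and 1.69e-05).

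A further 6 probes had a mean signal over 100. Vmn1r87 gave 159, 158 and 141, Vmn1r65 gave 157, 133 and 147, and Vmn1r25 gave 138, 138 and 141. Vmn1r192 gave 139, 129 and 122, Vmn1r53 gave 115, 124 and 111, and Vmn1r173 gave 104, 97.9 and 107.3. These genes came from chromosomes 6, 7 and 13, so the brighter probes were not of 1 cluster.

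Below them lay Vmn1r204 (89.1, 89.2 and 86.7), Vmn1r52 (86.0, 89.99 and 86.1) and Vmn1r216 (77.4, 85.1 and 97.7). Vmn1r195 gave 62.0, 62.6 and 68.7, Vmn1r44 gave 51.2, 57.5 and 52.5, and Vmn1r48 gave 46.0, 39.8 and 49.9. The lowest of these signals was 39.8, where the lowest signal well above background was at most 11.4 on an array. The flag is not a fixed cut on the signal, since Vmn1r237 was not flagged at 13.4 in replicate 3. The remaining probes of the 23 had lower means, and only the lowest of them came near those values. Vmn1r63 gave 39.7, 35.4 and 40.5, Vmn1r168 gave 30.6, 34.6 and 33.1 with its brighter probe, Vmn1r89 gave 29.2, 36.1 and 22.5, and Vmn1r62 gave 30.2, 17.4 and 27.0. Vmn1r56 gave 24.6, 21.3 and 19.3, Vmn1r45 gave 20.4, 18.5 and 23.4 with its brighter probe, and Vmn1r26 gave 14.5, 15.1 and 13.1. Vmn1r26 was the lowest of all that passed on 3 arrays, and Vmn1r131, at 16.1, 26.3 and 12.9, was the next.

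The level of a probe was taken as the log2 signal minus the 75th percentile of the array. For the 23 probes it ran from -1.14 to -5.39 with a median of -3.21, while the median level of all 175 Vmn1r probes was -7.87, -7.63 and -7.77 in the 3 replicates (-7.76 ± 0.12, SD, n = 3). All 23 lay below the 75th percentile. The SD of a level over the 3 arrays was 0.05 to 0.60 with a median of 0.13, where the median over all probes well above background on 3 arrays was 0.09. The median signal was 64.4 in the 23 probes and 282 in all such probes, and the SDs were not matched for signal. Only the dimmer probe of Vmn1r217 (18.8, 33.8 and 16.2) and the probe of Vmn1r131 spread over more than 1 log2 unit, both with replicate 2 highest. Replicate 2 had the highest level in 12 of the 23 probes, replicate 3 in 6 and replicate 1 in 5.

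**Figure D3:**
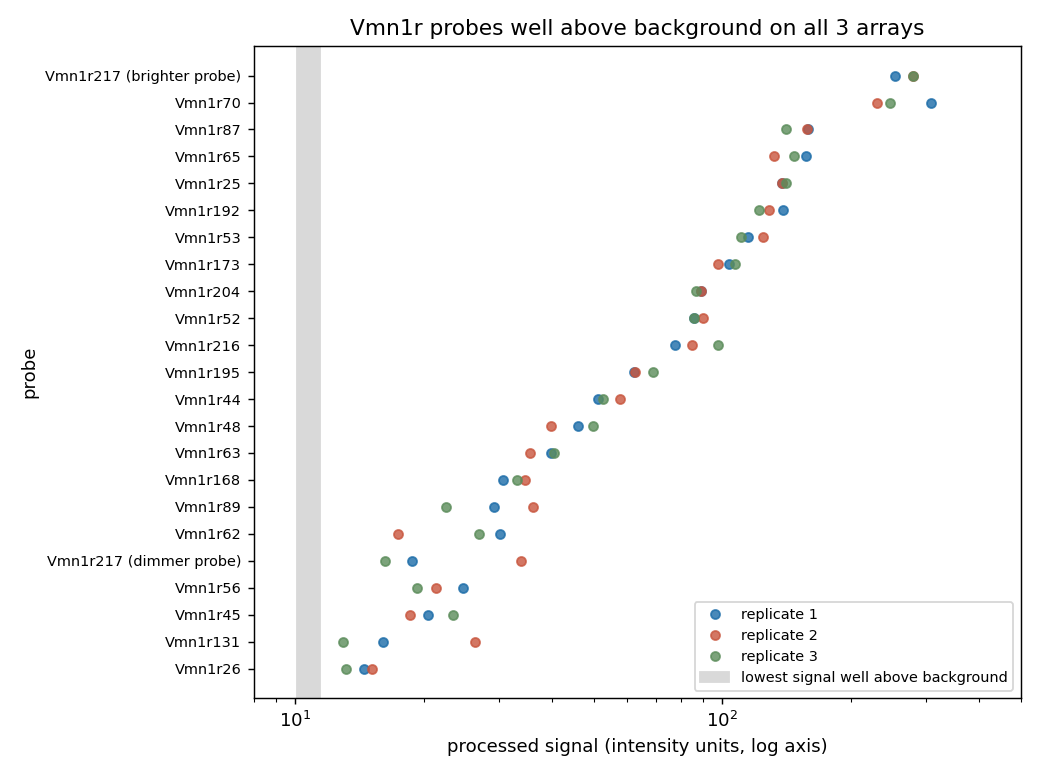
Processed signal (intensity units, log axis) of the 23 Vmn1r probes well above background on all 3 arrays, with 1 point for each replicate. The grey band spans the lowest signals that were well above background on the 3 arrays, up to 11.4. Points of a probe lie close together except for the dimmer probe of Vmn1r217 and the probes of Vmn1r131, Vmn1r89 and Vmn1r62.

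A signal on a single array was the other kind of detection. It was seen in 12 probes, 3 in replicate 1, 2 in replicate 2 and 7 in replicate 3. The most uneven was Vmn1r12, with signals of 2.68, 3.05 and 43.8. Vmn1r7 gave 2.89, 8.43 and 29.7, and 1 of the probes of Vmn1r121 gave 2.28, 2.57 and 26.1. In replicate 2 alone, Vmn1r55 gave 2.13, 15.8 and 2.14. In replicate 1 alone, Vmn1r40 gave 21.2, 2.84 and 3.94. In these 5 the other arrays were near the floor or, for Vmn1r7 in replicate 2, below the lowest signal well above background, so 1 spot on 1 array carried the signal. The others of this kind were Vmn1r22, Vmn1r151, Vmn1r219 and Vmn1r227 in replicate 3, Vmn1r139 in replicate 2, and Vmn1r148 and Vmn1r167 in replicate 1, with their highest signals between 13.2 and 16.8. Vmn1r76 was well above background on 2 arrays (18.7, 27.2 and 8.19). Among the 151 Vmn1r probes on at most 1 array, 7.95% were on exactly 1, against 13.3% of all such probes and 5.90% of 305 control spots.

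The lowest mean signals were those of Vmn1r183 (1 of its 3 probes), Vmn1r20, Vmn1r228, Vmn1r223 and Vmn1r191, between 2.10 and 2.15. These values are set by the replacement of low signals and have no order. Before that replacement, the 139 probes on no array had a median background-subtracted signal of -0.197, -0.889 and -0.619, and 51.8%, 57.6% and 56.8% of them were below 0. Of the 17652 other probes on no array 34.8%, 41.7% and 39.6% were below 0, and of the control spots 90.9%, 86.0% and 89.6%. The Vmn1r probes on no array thus lay between the other undetected probes and the controls in each replicate. The brightest of them reached 10.9, 10.28 and 11.9 units. Their 95th percentile was 7.65, 6.19 and 7.57 units, and 70.1%, 71.3% and 68.4% of all other probes lay above it.

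Several probes of 1 gene did not always tell the same story. For Vmn1r168, 1 probe gave 30.6, 34.6 and 33.1 and the other 5.47, 3.50 and 7.04, with no array flagged. For Vmn1r45 the values were 20.4, 18.5 and 23.4 against 2.29, 2.56 and 2.32. For Vmn1r121 the probe on 1 array stood beside another at 2.55, 2.88 and 2.69. Vmn1r217 was the gene with both probes on 3 arrays, and the brighter gave 254 to 280 where the dimmer gave 16.2 to 33.8. These genes were named because their probes differ, and the probes read different sequences.

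For 3 Vmn1r genes the probe was printed as 10 spots on each array, which shows how single spots behave at the floor. The median spot of Vmn1r58 was 8.85, 6.24 and 7.37 in the 3 replicates. In replicate 2 its brightest spots, at 80.8 and 106, were both well above background and both flagged as outliers among the 10, and in replicate 1 a single flagged spot stood out at 14.7. In Vmn1r81 (median 3.53, 2.92 and 2.77) and Vmn1r233 (median 2.39, 2.71 and 2.47) no spot reached detection on an array. Over all 105 probes of 10 spots that were undetected on every array, 66, 93 and 36 of 1050 spots were well above background (6.29%, 8.86% and 3.43%). A single bright spot of a probe printed once, such as that of Vmn1r12, has no such check.

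**Figure D4:**
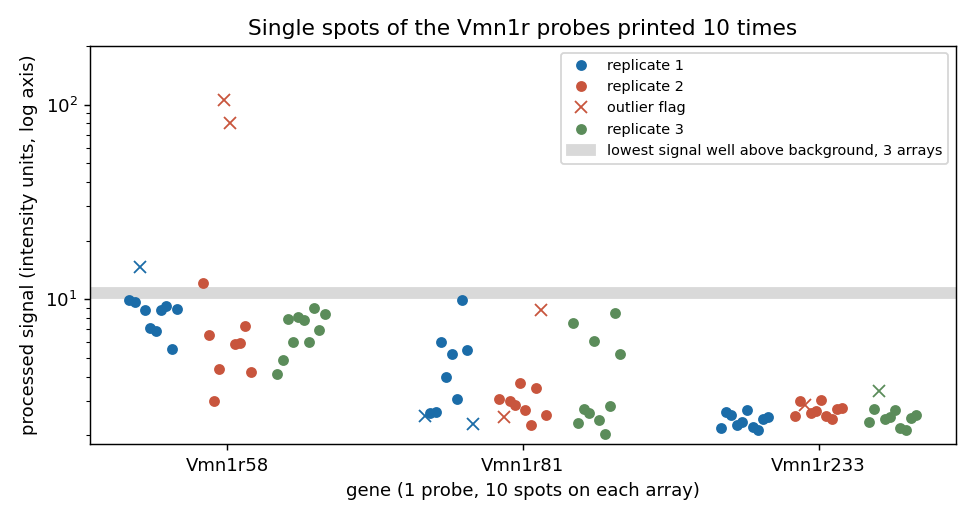
Processed signal (intensity units, log axis) of each of the 10 spots of the probes for Vmn1r58, Vmn1r81 and Vmn1r233, by replicate, with crosses for spots flagged as outliers and a grey band at the lowest signal well above background on the 3 arrays. The spots of Vmn1r58 at 80.8 and 106 in replicate 2 lie far from the other spots of the same probe.

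The genes with signal were spread over the clusters. On chromosome 6, 7 of 55 probes (12.7%) were well above background on all 3 arrays, on chromosome 7, 10 of 70 (14.3%), on chromosome 13, 6 of 35 (17.1%) and on chromosome 17, 0 of 14. By the letter of the first older gene name that the table lists, which is a rough grouping since some genes have names of several letters, it was 4 of 12 probes in V1ra, 5 of 22 in V1rd, 3 of 9 in V1ri, 2 of 34 in V1rc, 2 of 21 in V1rh, 1 of 14 in V1re, 0 of 11 in V1rg and 0 of 5 in V1rf. In V1rb it was 1 of 4, in V1rk 1 of 1, in V1rj 0 of 1, and among 41 probes without such a letter 4. The V1rc genes, with the most probes, had 1 of the brighter signals in Vmn1r25. The groups are small and were not compared by a test.

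Some of the genes with signal followed each other. In the order of the measured Vmn1r genes along a chromosome, 6 pairs of neighbours were both well above background on 3 arrays, namely Vmn1r25 and Vmn1r26, Vmn1r44 and Vmn1r45, Vmn1r52 and Vmn1r53, Vmn1r62 and Vmn1r63, Vmn1r87 and Vmn1r89, and Vmn1r216 and Vmn1r217. Of all measured Vmn1r genes 13.4% were on 3 arrays, and how many such pairs this share alone would give was not counted. With every annotated gene and pseudogene counted, none of the 22 genes directly adjoined another of them. Only 12 of the 22 adjoined any Vmn1r gene, and of the 142 other measured genes 16 (11.3%) adjoined 1 of the 22. Nothing is therefore read from the pairs or from their absence. Vmn1r52 and Vmn1r53 each adjoined V1ra8, a receptor gene of the same family whose name is outside the rule and whose probe was also well above background on all 3 arrays.

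**Figure D5:**
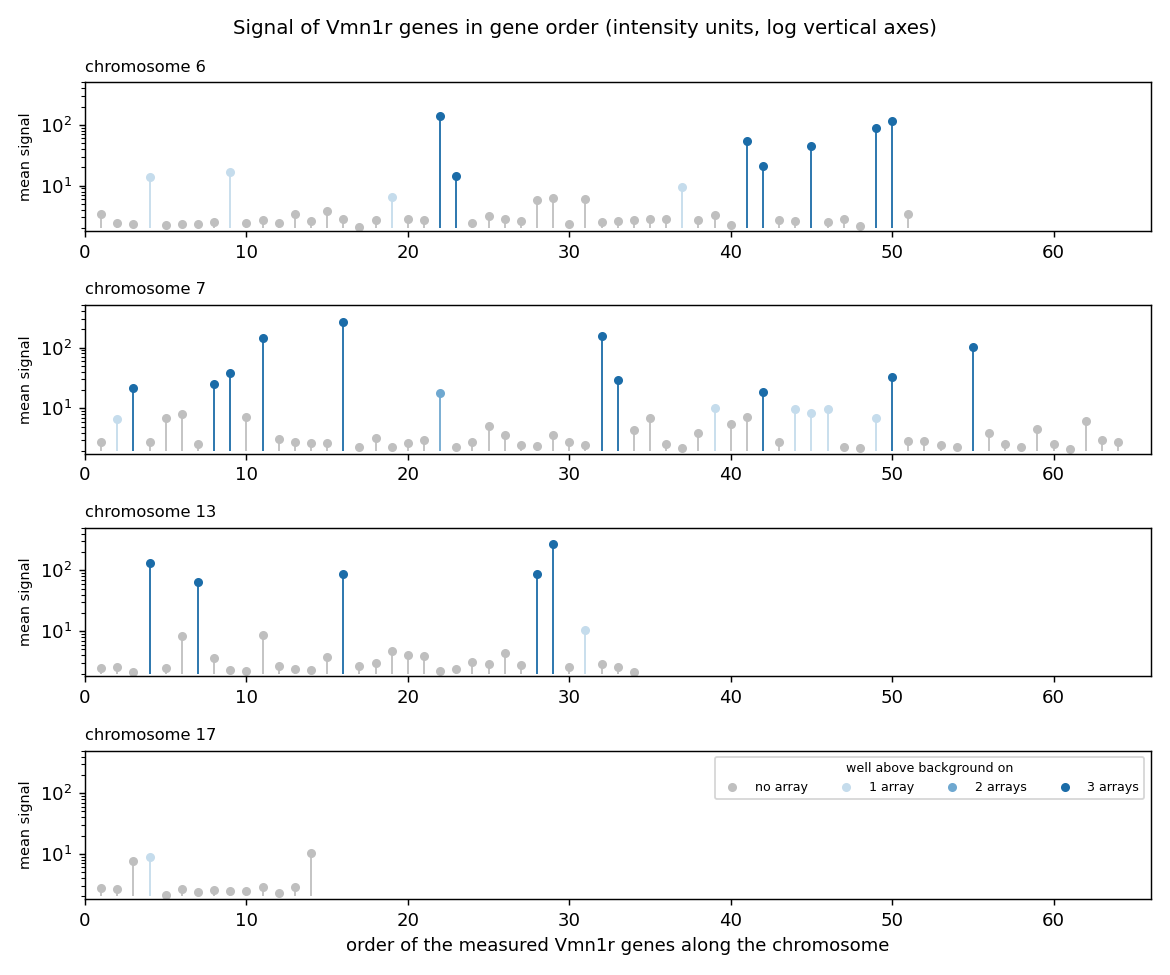
Mean processed signal over 3 arrays (intensity units, log vertical axes) of the measured Vmn1r genes in their order along chromosomes 6, 7, 13 and 17, with the brightest probe for each gene and colours for the number of arrays on which it was well above background. Genes with signal on 3 arrays stand among genes at the floor on chromosomes 6, 7 and 13, and chromosome 17 has none.

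Among measured genes there were 28 pairs with at least 90% identical bases over 300 around the annotated start. In 0 of them both genes were well above background on 3 arrays, in 9 one gene was, and in 19 neither. Of the 9 pairs 6 held the same gene, Vmn1r131, so the 9 rest on 4 genes with signal. Of all measured Vmn1r genes 13.4% were on 3 arrays, and nothing is read from the absence of joint cases. Vmn1r47 and Vmn1r48, 100% identical over the 300 bases and on opposite strands, gave 2.47, 2.76 and 2.53 against 46.0, 39.8 and 49.9. Vmn1r174 and Vmn1r173, 99% identical, gave 2.44, 2.79 and 6.60 against 104, 97.9 and 107.3. Vmn1r220, 92% identical to Vmn1r217, gave 2.71, 3.11 and 2.85, against 254, 280 and 280 for the brighter probe of Vmn1r217. Vmn1r118 and Vmn1r131, also 100% identical, gave 5.17, 2.56 and 3.89 against 16.1, 26.3 and 12.9. These pairs were picked for 1 gene with signal and 1 without, and each gene was read by its own probe, so the values are a description.

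For 145 measured Vmn1r genes a window was found, and in 120 of them (82.8%) the annotated start was itself an ATG, against 6.75% of 27025 genes, so the bases before it are those before the coding sequence and not a mapped promoter. The 250 bases before the start had a median GC content of 34.4% against 52.0% and a median of 1 CpG against 6, and 35.9% had no CpG against 8.26%. The letters TATAAA on either strand were in 36.6% of Vmn1r windows against 12.97% of all, and TAATTA, the core that homeodomain factors such as Lhx2 bind, in 10.34% against 4.90%. The Olfr and Vmn2r windows shared most of these traits. They had an ATG at the start in 72.9% and 86.2%, a median GC content of 34.0% and 38.6%, a median of 1 CpG each, TATAAA in 39.5% and 21.6%, TAATTA in 18.2% and 16.4% and CCCNNGGG in 2.77% and 19.0%. The 2 motifs overlapped in 0 of the Vmn1r windows. CCCNNGGG, a core bound by Ebf factors, was in 0 of 145 windows against 11.7% of all. Both TAATTA and CCCNNGGG read the same on both strands. Of the 19 genes on 3 arrays with a window, 14 had an ATG at the start, and their median GC content was 37.6%, against 34.0% for the other 126. The sets differ in GC content, and the motif shares were not adjusted for it. They therefore show neither enrichment nor depletion of a motif. Such matches are letters in a window and show no binding.

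Genes that act with the receptors were measured beside them. For the lists below, the share to read against is the 72.8% of all named genes that were well above background on 3 arrays. Of 14 measured genes of vomeronasal and olfactory signal transduction 10 were so, which is near that share. Gnai2, the G protein subunit of Vmn1r neurons that most cells also express, was at 21934 ± 1704 (SD, n = 3) and Itpr3, a calcium release channel, at 7601 ± 358. Ano1, a chloride channel, was at 177 ± 2.15, and Gnal and Adcy3, the G protein subunit and cyclase of olfactory neurons, were at 143 ± 11.1 and 49.6 ± 8.71. Gnao1, the G protein subunit of Vmn2r neurons, was well above background on 2 arrays (12.3, 9.15 and 12.8). Plcb2 and the receptor transport gene Rtp1 were not so on any array, while Rtp2 was at 62.3 ± 10.17.

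Of 9 measured genes of the MHC class Ib list, which vomeronasal neurons of the basal layer express with Vmn2r genes, 2 were well above background on 3 arrays, against 72.8% of all named genes. One was B2m, the light chain that all class I molecules share, at 1500 ± 19.4, and the other was H2-M11 at 36.4 ± 10.9. The remaining 7 were not so on any array. Of 17 genes of neuron fate and guidance 11 were well above background on 3 arrays, no more than the 72.8% of all named genes, among them Lhx2 at 158 ± 11.9, Ebf1 at 176 ± 2.08, the transcription factor Bcl11b at 86.0 ± 8.31 and the axon guidance receptor Nrp2 at 150 ± 12.6. Tfap2e, which vomeronasal neurons of the basal layer express, was on 2 arrays (14.3, 9.75 and 13.7), and Emx2, Ebf2, Ebf3, Robo2 and Ncam2 were on none. Of the chromatin factors linked to receptor choice 7 of 7 were well above background on 3 arrays, against the same 72.8%, with Trim28 at 55367 ± 277, Ehmt2, an H3K9 methyltransferase, at 23287 ± 605 and Kdm1a, a lysine demethylase, at 17966 ± 639.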

How the data were processed

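The 3 arrays were deposited as scanner output. Per the file headers, the spot intensities are output of Feature Extraction 10.7.3.1 from Agilent (the authors' notes give 10.7), a program that subtracted background, removed trends and set the flags. The authors did not normalize these intensities between arrays. They also deposited a table of log2 values, whose normalization is not given in the sources used here; it was used as an alternative.

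Accessions without versions were looked up in RefSeq's GRCm38.p6 gene table, while the array grid is on another build (mm9), so no probe coordinates are given. Spots with outlier flags were left out of signals, which were averaged over spots on the log2 scale. Detection required the well-above-background flag in 50% or more of a probe's spots. Levels were scaled to the 75th percentile. Calls against the controls were made with limma 3.58.1 (R 4.3.3) using lmFit and eBayes with a trend (two-sided, Benjamini-Hochberg over 55680 probes). The code of the fit was tried on simulated data with an equal spread for all probes and no replaced low values. That trial therefore says nothing about calls near the floor. The 3 samples are 1 group, the number of arrays limits the precision, and slide and scan did not differ.

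Alternatives were other flags and floors, background correction, scaling, the choice of probe and each replicate left out. The members and gene lists were chosen with earlier results of these data known. Named are genes with a probe well above background on at least 1 array, the brightest and dimmest, those whose probes disagree or spread over 1 log2 unit, and genes of the fixed lists. Where more than 20 genes had signal the rule asked for 20, and the others, the 10-spot genes, the near-copies and the low genes passing treat were named after their values were seen.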

Additional observations from a re-analysis of the deposited data

How the results depend on the processing

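Which Vmn1r probes count as measured depended on the floor. On all 3 arrays it was 23 probes by the well-above-background flag, and also 23 with outlier spots left out for detection. It was 25 above the 95th percentile of the controls (62.3% of all probes). By the flag for a positive and significant signal it was 47 (73.2% of all probes), and above the brightest control spot 0 (24.5% of all probes). On at least 1 array it was 36 by the well-above-background flag, where 68.0% of all probes were. It was 85 by the flag for a positive and significant signal, 14 above the brightest control spot and 79 above the 95th percentile of the controls. For these last floors the share of all probes on at least 1 array was not counted, so nothing is read from them. Leaving out each replicate gave 23 to 24 on all remaining arrays and 29 to 34 on at least 1. With fewer arrays the first count cannot fall and the second cannot rise, so these ranges say nothing about stability. The 83 higher and 31 lower calls of limma became 34 and 0 with treat and 96 and 0 with normexp. They became 105 and 0 on log2 of the background-subtracted signal plus 20 (chosen after seeing the data). There 50081 of 55680 probes were called higher and 6 lower, and 18 of 295 control spots (6.10%). Without 1 replicate 72 to 87 Vmn1r probes were called higher and 20 to 32 lower. Of 55385 to 55520 probes, 42637 to 43828 were then called higher. The median difference of 0.14 log2 units from the controls became 0.083 with normexp, and on the linear scale it was 3.33 intensity units with plain subtraction and 3.99 with the background-subtracted signal (chosen after seeing the data); without 1 replicate it was 0.13 to 0.15. The median level of -7.76 became -3.94 when scaled to the array median, which moved the median of all probes by 3.81, and -3.43 with normexp, which moved it by 1.20, and was -7.82 to -7.70 without 1 replicate. Levels of the 36 probes on at least 1 array moved with the first of these scalings and by less than 1 SD under quantile normalization. With 3 arrays, leaving out a replicate can move a mean by less than 1 SD only, so that setting says nothing about their stability. The causes of these changes were not tested. No paired analysis was possible because the 3 arrays hold a single group.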
